A study of Mus musculus with 6 samples.

Results

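The genes examined here encode the TGF-β, BMP and activin signalling system, from its secreted ligands to the SMAD proteins and the genes that they induce. The 49 genes were chosen by function from a written list, with earlier results of these data known. A gene was measured if at least 1 probe set on the array names it and no other gene. By this rule 47 of the 49 genes were measured, of 18193 genes named in the same way on the whole array. They were covered by 104 of the 45037 probe sets tested. Gdf6 and Gdf15 were not analysed here, and 1 probe set that names Acvr2a together with another gene was not used. Each gene was taken by the probe set with the highest mean over all arrays, and its other probe sets are given beside it.

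SMC-IRF9-TG mice, in which the mouse SM22α promoter drives a complete mouse IRF9 cDNA in smooth muscle, were compared with non-transgenic (NTG) mice. The study chose line 4 of these mice for its later evaluations, but its account of the arrays does not name the line. The strain is C57BL/6 in the labels and C57BL/6J in the study's account of the transgenic mice. The study's methods describe its mice as males aged 10 to 12 weeks. Carotid arteries of both genotypes had undergone wire injury and were collected 14 days later, so the groups share the injury and no uninjured artery is in the comparison. Vessels were pooled by 3 to 5, and 3 pools per genotype were each labelled from 400 ng of RNA for an Affymetrix array of their own.

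TGF-β, BMP and activin ligands are secreted dimers that bring type I and type II serine/threonine kinase receptors together. TGF-β and activin receptors phosphorylate SMAD2 and SMAD3, BMP receptors phosphorylate SMAD1, SMAD5 and SMAD9, and both groups of SMADs enter the nucleus with SMAD4. TGF-β is held in the matrix in a latent form until it is released, and secreted antagonists limit the activin and BMP ligands. In the injured arterial wall the pathway is known for its part in matrix deposition and in the state of smooth muscle cells.

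The labels state the genotype of every pool, but the array did not separate the groups at the overexpressed gene itself. Irf9 read 5.46, 5.41 and 5.58 in SMC-IRF9-TG pools 1, 2 and 3, against 4.75, 5.43 and 5.36 in NTG pools 1, 2 and 3, on the log2 scale of the deposited values (log2 difference 0.30 ± 0.23 (SE), limma adjusted p = 0.436). Whether this probe set lies within the transgene was not checked. The 8 smooth muscle markers had a summed linear level of 22562 to 23788 in SMC-IRF9-TG pools and 15729 to 22857 in NTG pools, and 0 of 8 passed the test by limma at an adjusted or an unadjusted p under 0.05. Some pools stood apart from the rest. Correlations between arrays were 0.980 to 0.985 within SMC-IRF9-TG and 0.927 to 0.955 within NTG, so the NTG pools were less alike. The 3′ probe set of Actb exceeded the 5′ one by 1.56 to 2.50 in the SMC-IRF9-TG pools, against 2.21, 7.09 and 3.04 in NTG pools 1, 2 and 3, and a large excess as in NTG pool 2 can be a sign of shorter RNA. Xist, the RNA that coats an inactive X chromosome and is a mark of female tissue, read 2.94 to 3.72 in the SMC-IRF9-TG pools, against 9.94, 9.50 and 4.08 in NTG pools 1, 2 and 3, although the mice are given as males. The poly-A controls added during labelling averaged 5.03 and 4.55 in SMC-IRF9-TG pools 1 and 2, against 9.14 in the third SMC-IRF9-TG pool and 7.53 to 11.7 in the NTG pools.

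Macrophage and fibroblast markers also moved with the genotype. Of 12 macrophage markers, 11 were higher in SMC-IRF9-TG arteries and only Itgam did not pass, and their summed linear level was 3949 to 5271 in SMC-IRF9-TG pools and 196 to 337 in NTG pools. Of 7 fibroblast markers, 5 were higher, and their summed level was 12837 to 14161 in SMC-IRF9-TG pools and 3273 to 3479 in NTG pools. Of the markers of endothelial cells, 1 of 7 was higher. The markers of T cells, neutrophils, adipocytes, skeletal muscle, Schwann cells and epithelium gave 0 calls by limma at an adjusted p under 0.05 among 19 measured genes. At an unadjusted p under 0.05 there were 7 of the 19, against 24.7% of all genes. Of these, 4 had higher SMC-IRF9-TG means, including all 3 neutrophil markers, and 3 had lower ones. The neutrophil marker S100a8 read 8.83, 9.99 and 4.34 in SMC-IRF9-TG pools 1, 2 and 3, against 3.42, 4.07 and 2.56 in NTG pools. The part of other cell types in the results on the pathway was not tested, and in whole arteries more cells of a type and more RNA per cell cannot be told apart.

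Among the 47 measured genes, 8 were higher in SMC-IRF9-TG than in NTG arteries and 0 were lower by limma at an adjusted p under 0.05. The 8 comprised the ligand Gdf10, the matrix proteins Tgfbi and Ltbp2, the secreted regulators Fst, Bmper and Bmp1, the nuclear target Id1 and the signal transducer Smad2. Over all genes of the array, 3.11% were called higher and 0.511% lower, and these shares also stand beside the counts by role below. The median log2 difference was 0.50 over the 47 genes and -0.05 over all genes, and the median of the 47 was 0.59 with arrays centred on their medians and 0.25 under quantile normalization. Of the 47 differences 33 were above 0 (34 and 29 under these scalings), against 46.3% of all genes. At an unadjusted p under 0.05, 18 of the 47 genes were higher and 1 was lower, against 14.9% and 9.81% of all genes. In 19 of the 47 genes every SMC-IRF9-TG pool was above every NTG pool and in 2 every SMC-IRF9-TG pool was below, and over all genes these shares were 16.1% and 16.1%. Among the 104 probe sets of the 47 genes, 12 were higher and 0 were lower, against 2.37% and 0.373% of all probe sets. Since the animals behind each pool are not named in the labels, the p-values reflect only how much these pools differ. With 3 pools against 3 the smallest 2-sided p of an exact permutation test is 0.1, which each of the 8 genes gave.

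**Figure D1:**
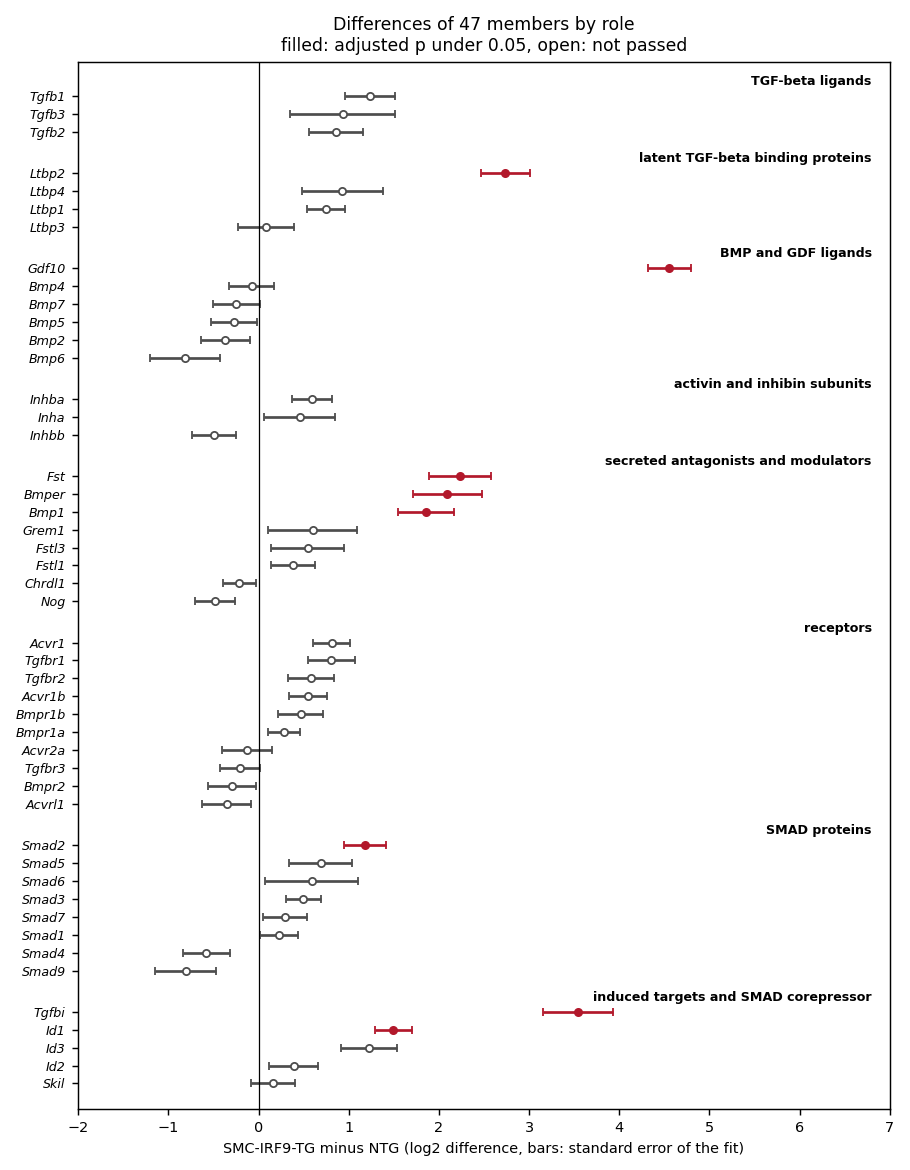
Differences of the 47 measured genes by role. The x axis is the log2 difference, SMC-IRF9-TG minus NTG, from limma with 3 pools per group, and bars are the standard error of the fit. Filled points passed an adjusted p under 0.05, and the 8 filled points lie between 1.18 (Smad2) and 4.56 (Gdf10).

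RefSeq sequence before the transcription start (build GRCm38.p6) was at hand for 4 of the 8 genes, Gdf10, Tgfbi, Ltbp2 and Bmper, and is shown because these genes were all higher in arteries that carry a transgene for a DNA-binding factor. The 250 bases before each start were searched on both strands for AANNGAAA, a core bound by interferon regulatory factors, CAGAC, a SMAD-binding core, TGGCGCC, a motif found at BMP-responsive genes, and TGANTCA, the AP-1 motif. The windows are chr14:33923337-33923586 (plus strand) for Gdf10, chr13:56609336-56609585 (plus strand) for Tgfbi, chr12:84876492-84876741 (minus strand) for Ltbp2 and chr9:23222826-23223075 (plus strand) for Bmper. Capitals mark the matches.
Gdf10: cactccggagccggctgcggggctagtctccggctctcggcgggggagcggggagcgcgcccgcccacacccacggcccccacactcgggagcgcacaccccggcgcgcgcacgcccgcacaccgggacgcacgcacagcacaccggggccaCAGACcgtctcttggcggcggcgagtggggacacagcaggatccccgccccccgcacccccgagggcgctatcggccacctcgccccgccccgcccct
Tgfbi: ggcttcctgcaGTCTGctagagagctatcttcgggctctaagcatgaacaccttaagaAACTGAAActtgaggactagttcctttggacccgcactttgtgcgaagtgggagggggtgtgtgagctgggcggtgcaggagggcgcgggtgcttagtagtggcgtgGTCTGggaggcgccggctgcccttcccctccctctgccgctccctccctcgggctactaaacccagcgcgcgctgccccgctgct
Ltbp2: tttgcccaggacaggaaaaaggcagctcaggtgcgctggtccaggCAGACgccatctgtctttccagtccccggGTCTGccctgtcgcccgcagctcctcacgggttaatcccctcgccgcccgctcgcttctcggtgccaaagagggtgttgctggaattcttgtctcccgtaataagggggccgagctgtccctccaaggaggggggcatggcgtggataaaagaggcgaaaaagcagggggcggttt
Bmper: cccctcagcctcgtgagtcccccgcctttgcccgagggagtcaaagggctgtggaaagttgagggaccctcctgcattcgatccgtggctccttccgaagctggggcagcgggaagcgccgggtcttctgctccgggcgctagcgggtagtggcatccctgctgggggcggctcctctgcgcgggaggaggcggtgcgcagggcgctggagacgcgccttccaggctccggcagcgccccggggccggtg
Tgfbi alone of the 4 held AANNGAAA, whose first base lies 192 bases before the start, while 21.3% of the 32851 windows in the table held it. CAGAC or its reverse complement was found once in Gdf10, 98 bases before the start, and at 2 places each in Tgfbi and Ltbp2, and 42.2% of all windows held it. Bmper held none of the 4 motifs, and TGGCGCC (3.21% of windows) and TGANTCA (6.75%) were in none of the 4 windows. No 2 matches overlapped. Such a match is only a run of letters and was not tested for binding.

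The ligand Gdf10, a secreted TGF-β superfamily member closely related to BMP3, showed the largest difference of the 47 genes. It read 9.41, 9.61 and 10.22 in SMC-IRF9-TG pools 1, 2 and 3, against 5.23, 5.11 and 5.23 in NTG pools 1, 2 and 3. The NTG pools lay within 0.11 of each other and no SMC-IRF9-TG pool came near them. The difference of 4.56 ± 0.24 (SE) corresponds to 23.5-fold (limma adjusted p = 0.000257), which ranked 10th among 18193 genes. Gdf10 passed under every setting tried except the methods' t-test. Among these were the blocks for high Xist (adjusted p = 0.0118) and for low poly-A controls (adjusted p = 0.00861), in each of which 1 arm is a single pool that is assumed to vary like the others.

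None of the 5 BMP ligands passed by limma, and 0 of 5 had an unadjusted p under 0.05, against 24.7% of all genes. Bmp2, Bmp4, Bmp5, Bmp6 and Bmp7, which signal through the BMP receptors, gave log2 differences of -0.37, -0.08, -0.27, -0.81 and -0.25. The difference of Bmp4 was 0.02 once each array was centred on its median, so its sign was not settled. Bmp6 read 7.50, 6.93 and 7.15 in SMC-IRF9-TG pools, against 8.53, 8.44 and 7.05 in NTG pools 1, 2 and 3. The groups overlapped through NTG pool 3 (limma adjusted p = 0.252), and without that pool the difference was -1.29 with an adjusted p of 0.0345. NTG pools 1 and 2 are those with high Xist.

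The 3 TGF-β ligands were all read at higher average levels in SMC-IRF9-TG arteries, but none passed. Tgfb1, the main isoform of injured and inflamed tissue, read 4.15, 4.42 and 5.08 in SMC-IRF9-TG pools, against 3.61, 3.31 and 3.03 in NTG pools. Its groups did not overlap and the difference of 1.23 ± 0.28 (SE) lay just outside the threshold (limma adjusted p = 0.0603). Tgfb1 passed in only 3 of 17 settings tried. These were each array centred on its median (limma adjusted p = 0.0485), dim probe sets left out (0.0423) and a block for poly-A controls below the midpoint (0.0459). It did not pass under quantile normalization (0.0905), by the mean of its probe sets (0.210) or with any single pool left out (0.0791 to 0.184). The second probe set of Tgfb1 gave -0.30 ± 0.29 (SE). Tgfb2 gave 0.86 ± 0.30 (SE) at its brightest probe set (adjusted p = 0.158) and 0.03 to 1.72 at the other 3. Tgfb3 read 7.04, 7.44 and 8.17 in SMC-IRF9-TG pools, against 7.52, 5.14 and 7.19 in NTG pools 1, 2 and 3, so that its difference of 0.93 ± 0.58 (SE) rested on the low NTG pool 2 and was 0.19 without it.

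Among the latent TGF-β binding proteins, which anchor latent TGF-β in the matrix, Ltbp2 was higher. Ltbp2 is bound to fibrillin microfibrils and, unlike the other members of its family, is not known to bind latent TGF-β. It read 9.61, 8.82 and 9.47 in SMC-IRF9-TG pools, against 6.90, 6.26 and 6.54 in NTG pools. All SMC-IRF9-TG pools were above all NTG pools, with a difference of 2.74 ± 0.27 (SE), or 6.66-fold (limma adjusted p = 0.00242). Ltbp4 gave 0.93 ± 0.45 (SE), Ltbp1 gave 0.75 ± 0.21 (SE) and Ltbp3 gave 0.08 ± 0.31 (SE), with adjusted p-values from 0.103 to 0.884. Under quantile normalization Ltbp3 was at -0.19, and its other 3 probe sets ranged between -0.13 and 1.16. Ltbp4 read 6.45 to 7.10 in SMC-IRF9-TG pools, against 6.84, 4.85 and 5.85 in NTG pools 1, 2 and 3.

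The 3 activin and inhibin subunits gave no call by limma. At an unadjusted p under 0.05, 1 of the 3 was higher, against 14.9% of all genes. Inhba, which encodes the βA subunit of activin A, read 8.06, 8.56 and 8.31 in SMC-IRF9-TG pools, against 7.94, 7.76 and 7.45 in NTG pools. The groups did not overlap at this probe set, but the difference was only 0.59 ± 0.22 (SE) (limma adjusted p = 0.176). A second probe set gave -0.45, and there the SMC-IRF9-TG mean lay under the lower quartile of its arrays. Inha, the inhibin α subunit, gave 0.45 ± 0.39 (SE). Inhbb, the βB subunit, gave -0.50 ± 0.25 (SE) at one probe set and 0.33 ± 0.22 (SE) at the other.

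Of 8 secreted antagonists and modulators, 3 were higher, against 3.11% of all genes. Fst encodes follistatin, which binds activins and keeps them from their receptors. It read 6.70, 5.74 and 5.84 in SMC-IRF9-TG pools, against 3.33, 3.84 and 4.41 in NTG pools. The groups were apart, and the difference of 2.23 ± 0.34 (SE), or 4.69-fold (limma adjusted p = 0.0153), was matched by 2.15 ± 0.26 (SE) at a second probe set (adjusted p = 0.00581). Bmper encodes a secreted BMP-binding protein. It read 4.55, 4.78 and 3.61 in SMC-IRF9-TG pools, against 1.52, 2.57 and 2.57 in NTG pools. Every SMC-IRF9-TG pool was above every NTG pool, with a fitted difference of 2.09 ± 0.38 (SE) (limma adjusted p = 0.0301). The NTG mean lay under the lower quartile of its arrays, so that Bmper was higher by a size that is not known.

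Bmp1, despite its name, encodes a metalloproteinase that trims procollagen and cleaves the BMP antagonist chordin. Its brightest probe set read 7.59, 7.24 and 8.11 in SMC-IRF9-TG pools, against 6.30, 5.33 and 5.74 in NTG pools. The groups did not overlap there, and the difference was 1.85 ± 0.31 (SE), or 3.62-fold (limma adjusted p = 0.0209). The other probe sets of Bmp1 were dim, with mean levels of 2.80 and 2.59 over all pools against 6.72 for the brightest. They gave -0.21 and 0.58 without passing, and the mean of all 3 probe sets gave 0.74 (limma adjusted p = 0.0748). The call on Bmp1 thus depends on the probe set taken.

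The remaining antagonists did not pass. Grem1 and Nog, which bind BMP ligands, gave 0.60 ± 0.49 (SE) and -0.48 ± 0.22 (SE), and the SMC-IRF9-TG mean of Nog lay under the lower quartile of its arrays. Fstl3, a relative of follistatin, gave 0.54 ± 0.40 (SE). Chrdl1, a chordin-like BMP antagonist, gave -0.22 ± 0.18 (SE) at its brightest probe set and -0.59 to 0.36 at 3 others. Nog, and Chrdl1 at its brightest probe set, read lower in every SMC-IRF9-TG pool than in any NTG pool. Fstl1, a secreted glycoprotein, gave 0.38 ± 0.25 (SE) and, at a second probe set, 0.98 ± 0.22 (SE) (limma adjusted p = 0.0571). Its groups overlapped at the first probe set and were apart at the second.

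None of the 10 receptors passed by limma at an adjusted p under 0.05, while 4 were under 0.05 unadjusted, all with higher SMC-IRF9-TG means, against 14.9% of all genes. Acvr1, a type I receptor of the BMP branch, read 7.71, 7.43 and 7.59 in SMC-IRF9-TG pools, against 6.99, 6.82 and 6.49 in NTG pools. Its groups were apart by a difference of 0.81 ± 0.21 (SE) (adjusted p = 0.0826), although its other probe sets gave -0.26 and 0.57. Tgfbr1, the type I receptor for TGF-β, read 9.24, 8.59 and 8.77 in SMC-IRF9-TG pools, against 7.70, 8.44 and 8.04 in NTG pools. It gave 0.81 ± 0.26 (SE) (adjusted p = 0.140), and its other probe sets, both near the bottom of the arrays, gave -0.76 and -0.36.

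Tgfbr2, the type II receptor for TGF-β, gave 0.58 ± 0.25 (SE) with groups that did not overlap (limma adjusted p = 0.220). Acvr1b, the type I activin receptor, gave 0.55 ± 0.21 (SE). Of the BMP receptors, Bmpr1b gave 0.47, Bmpr1a 0.28 and Bmpr2 -0.29. The other, dim probe sets of Bmpr1b gave -0.64 and -0.28. Bmpr1a had 6 probe sets, which ranged between -0.62 and 0.77, with 3 on each side of 0. The coreceptor Tgfbr3 gave -0.20, the activin type II receptor Acvr2a -0.13 and Acvrl1, a BMP receptor of endothelial cells, -0.36. The differences of all 10 receptors lay within 0.81 of 0.

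Of the SMAD proteins, only Smad2 passed. Smad2, which carries TGF-β and activin signals, read 6.22, 6.09 and 5.81 in SMC-IRF9-TG pools, against 4.50, 5.00 and 5.09 in NTG pools. The groups did not overlap and the difference was 1.18 ± 0.23 (SE), or 2.27-fold (limma adjusted p = 0.0358), with 0.62 ± 0.18 (SE) at a second probe set (adjusted p = 0.116). Of its partners, Smad3 gave 0.50 ± 0.20 (SE) and the common SMAD, Smad4, gave -0.58 ± 0.26 (SE), and neither passed. The other probe sets of Smad4 gave 0.07 and 0.48.

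The SMADs of the BMP branch did not pass either. Smad9 read 2.82, 3.00 and 2.81 in SMC-IRF9-TG pools, against 4.45, 3.00 and 3.61 in NTG pools. Its groups met at NTG pool 2 (difference -0.81 ± 0.34 (SE), limma adjusted p = 0.211). Smad5 gave 0.69 ± 0.35 (SE) and Smad1 0.23 ± 0.21 (SE). The inhibitory SMADs, Smad6 and Smad7, gave 0.59 ± 0.52 (SE) and 0.29 ± 0.24 (SE), and a second probe set of Smad7 gave -0.66. NTG pool 2 was the lowest of all pools for Smad5, at 4.20, and for Smad6, at 4.88. Without it the difference of Smad6 was -0.02. Under quantile normalization Smad1 was at -0.05 and Smad7 at -0.01.

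Among induced targets, Tgfbi and Id1 were higher. Tgfbi encodes a secreted matrix protein, first found as a TGF-β-induced transcript, that binds collagens and integrins. It read 9.73, 9.39 and 8.29 in SMC-IRF9-TG pools, against 5.20, 6.06 and 5.53 in NTG pools. The groups were far apart, with a difference of 3.54 ± 0.38 (SE), or 11.6-fold (limma adjusted p = 0.00379), and the 3 other probe sets passed with differences between 3.41 and 3.91. The third SMC-IRF9-TG pool was the lowest of its group at all 4 probe sets, and without it the difference was 3.96. The summed macrophage and fibroblast markers given above were also higher in all 3 SMC-IRF9-TG pools than in any NTG pool. Such a separation was found in 16.1% of all genes, and the part of these cells in the level of Tgfbi was not tested.

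Id1 encodes an inhibitor of basic helix-loop-helix factors and is a direct target of BMP signalling. It read 9.24, 9.44 and 9.77 in SMC-IRF9-TG pools, against 7.89, 8.05 and 8.03 in NTG pools. The groups were apart by 1.49 ± 0.21 (SE), or 2.81-fold (limma adjusted p = 0.00992). Its relative Id3 read 9.83, 9.87 and 9.24 in SMC-IRF9-TG pools, against 8.74, 7.79 and 8.72 in NTG pools. Id3 did not overlap between groups either but lay outside the threshold (difference 1.22 ± 0.31 (SE), adjusted p = 0.0806). Id2 gave 0.39 ± 0.27 (SE), with 0.14 and 0.56 at 2 other probe sets, and Skil, a SMAD corepressor, gave 0.16 ± 0.24 (SE), which was -0.12 under quantile normalization.

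**Figure D2:**
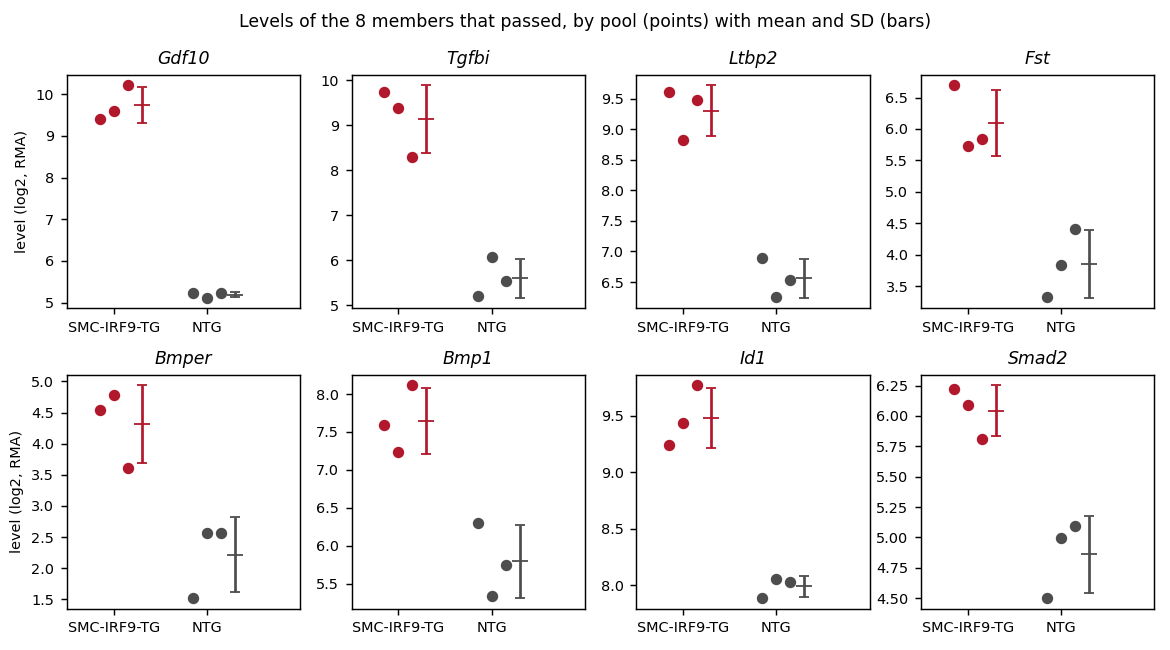
Levels of the 8 genes that passed, in every pool. The y axis of each panel is the log2 level at the brightest probe set, red points are SMC-IRF9-TG pools and grey points are NTG pools in the order 1 to 3, and bars give the mean and SD of 3 pools. In each of the 8 panels the lowest red point lies above the highest grey point.

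Most of the genes with several probe sets did not give the same sign at all of them. Of 31 such genes, 11 had differences of 1 sign and 20 of both signs. The 20 were Tgfb1, Ltbp3, Inhba, Inhbb, Chrdl1, Bmp1, Tgfbr1, Tgfbr2, Tgfbr3, Bmpr1a, Bmpr1b, Bmpr2, Acvr1, Acvr1b, Acvrl1, Smad3, Smad4, Smad5, Smad7 and Skil. Of the 8 genes that passed, Tgfbi passed at 4 of 4 probe sets, Fst at 2 of 2, Smad2 at 1 of 2 and Bmp1 at 1 of 3, while Gdf10, Ltbp2, Bmper and Id1 had a single probe set. Over the 57 probe sets other than the brightest, the median difference was -0.0044, against -0.13 over all 45037 probe sets tested.

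**Figure D3:**
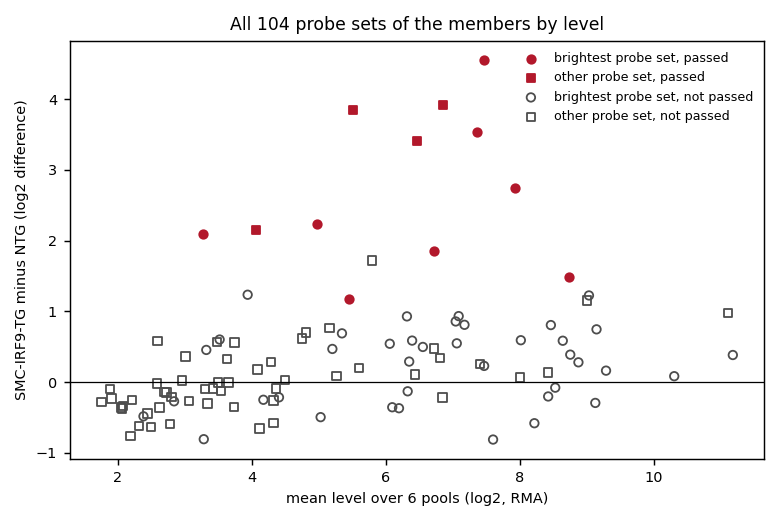
All 104 probe sets of the 47 genes. The x axis is the mean log2 level over 6 pools and the y axis the log2 difference, SMC-IRF9-TG minus NTG. Circles are the brightest probe set of a gene, squares are its other probe sets, and the 12 filled points, all above 0, passed an adjusted p under 0.05.

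The 8 calls did not all rest on the pools equally. Gdf10, Tgfbi and Ltbp2 passed with any single pool left out, with adjusted p-values of at most 0.00553, 0.0284 and 0.0148. Id1 did not pass without SMC-IRF9-TG pool 2 (adjusted p = 0.0573) or pool 3 (0.0524). Fst did not pass without SMC-IRF9-TG pool 1 (0.0506), SMC-IRF9-TG pool 2 (0.0534) or NTG pool 1 (0.0577). These values lay close to the threshold, and the differences themselves kept within 1.35 to 1.61 for Id1 and 1.93 to 2.51 for Fst.

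Bmp1 did not pass without SMC-IRF9-TG pool 1 (limma adjusted p = 0.0773), pool 2 (0.0554) or pool 3 (0.0803). Bmper did not pass without SMC-IRF9-TG pool 1 (0.115), SMC-IRF9-TG pool 2 (0.135) or NTG pool 1 (0.0803), and Smad2 lost its call without SMC-IRF9-TG pool 1, 2 or 3 (0.161, 0.158 and 0.0895) or NTG pool 1 (0.0836). Without NTG pool 2, the pool with the large 3′ excess at Actb, all 8 passed. With a block for the 2 NTG pools of high Xist, which sets the SMC-IRF9-TG pools against NTG pool 3, the 8 differences were 0.95 to 4.52 and 1 passed, Gdf10. With a block for the 2 SMC-IRF9-TG pools of low poly-A controls, which sets the third SMC-IRF9-TG pool against the NTG pools, they were 0.95 to 5.03 and again only Gdf10 passed. With either block fewer probe sets of the whole array passed than without it, and all 8 differences stayed above 0. That of Tgfbi was 2.70 under the second block.

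**Figure D4:**
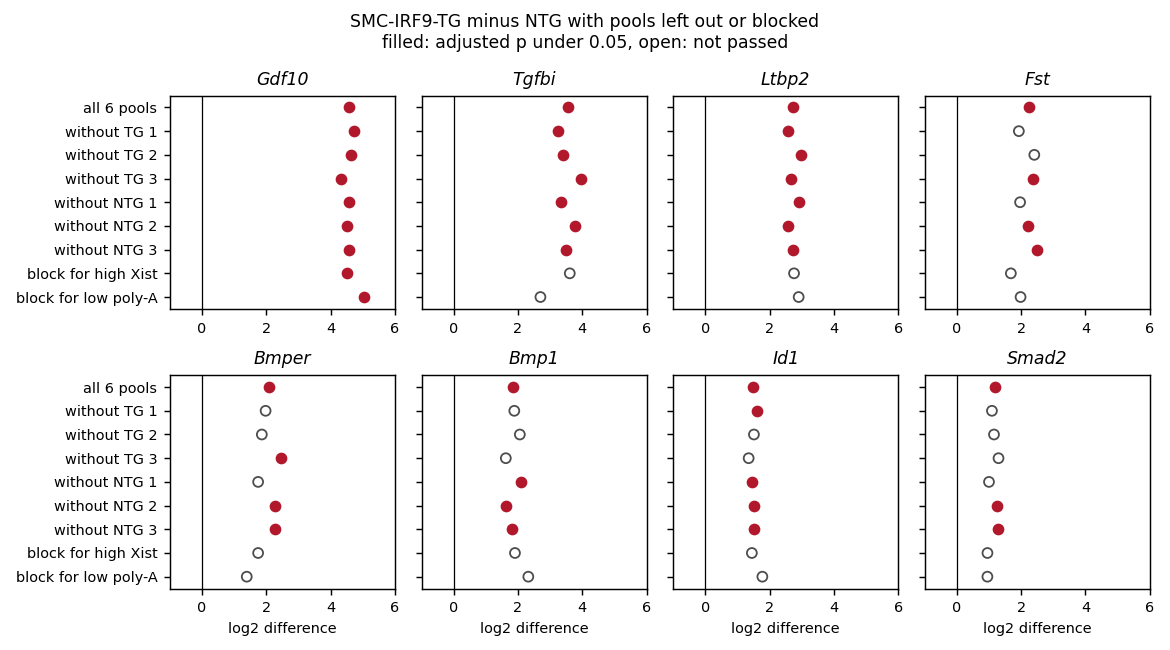
Differences of the 8 genes with each pool left out in turn and with blocks for high Xist or low poly-A controls. The x axis is the log2 difference, SMC-IRF9-TG minus NTG (TG in the row names), and filled points passed an adjusted p under 0.05. The points of Gdf10 are filled in all 9 rows and those of Smad2 in 3, and no point lies below 0.

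A further list of pathway genes, written beside the 49 and also with earlier results known, held 67 genes, of which 59 were measured. By limma 2 of the 59 were higher and 1 was lower, shares near those of all genes (3.11% and 0.511%), and their median log2 difference was -0.11. Thbs1 encodes thrombospondin-1, a matrix protein that can release TGF-β from its latent form. It read 9.21, 8.60 and 9.10 in SMC-IRF9-TG pools, against 5.75, 5.72 and 4.54 in NTG pools (difference 3.63 ± 0.35 (SE), or 12.4-fold, adjusted p = 0.00214). Tgif1, a nuclear corepressor of SMAD complexes, read 5.40, 5.21 and 5.59 in SMC-IRF9-TG pools, against 4.24, 4.04 and 3.51 in NTG pools (difference 1.47 ± 0.24 (SE), adjusted p = 0.0190). Both were apart from the NTG pools in all 3 SMC-IRF9-TG pools. Hjv, a BMP coreceptor, read 4.27, 4.37 and 4.84 in SMC-IRF9-TG pools, against 5.46, 5.58 and 5.52 in NTG pools (difference -1.03 ± 0.21 (SE), adjusted p = 0.0435). Thbs1 passed with any single pool left out and was at 4.43 with the block for high Xist, but did not pass with the block for low poly-A controls (difference 3.76, adjusted p = 0.0660). Tgif1 did not pass without SMC-IRF9-TG pool 1, 2 or 3 (0.0857, 0.0718 and 0.0903), and Hjv did not pass when any single pool was left out (0.0593 to 0.195). The 15 further ligands gave 0 calls by limma, with 2 of 15 under 0.05 unadjusted, both with lower SMC-IRF9-TG means, against 9.81% of all genes.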

How the data were processed

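RNA of 6 pools of injured carotid arteries, 3 from SMC-IRF9-TG and 3 from NTG mice, was measured on Affymetrix arrays. Per the submitters' processing notes, the authors used RMA within Affymetrix Expression Console (versions: not given in the sources used here), and the deposited values are levels of probe sets on a log2 scale. RMA subtracts background, is meant to make array distributions alike and combines the probes of a set into 1 value. The deposited distributions still differed between the groups. Lower quartiles were 2.33 to 2.41 in SMC-IRF9-TG arrays and 2.57 to 2.66 in NTG arrays. The lowest values were 1.07 to 1.16 and 0.43 to 0.47. Values ran between 0.43 and 13.9, with array medians between 3.42 and 3.66, and were used without another normalization. Scanner files were not used here, so detection was not checked.

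The 64 control probe sets were set aside, and limma 3.58.1 (lmFit and eBayes, R 4.3.3) compared the groups at 45037 probe sets, 2-sided, with Benjamini-Hochberg adjustment over all of them and a threshold of 0.05. A probe set that lists several genes or none gave no gene name. Exact permutation tests used scipy 1.17.1. The fit was tested on simulated data. The members and lists were chosen with earlier results of these data known. Values per pool are given for genes that passed and, by role, for some with large differences, and other values shown were chosen after they were seen.

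As alternatives, arrays were centred on their medians or normalized by quantiles, dim probe sets were left out, the variance prior was made trended and robust, arrays were weighted, the methods' t-test replaced limma, the replicate number was a block, single pools were left out, high-Xist arrays and arrays with low poly-A controls were blocked, all probe sets of a gene were averaged, and the threshold was set to 0.1. A block for the 3 arrays whose poly-A controls lie below the midpoint of their range was added after seeing the data.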

Additional observations from a re-analysis of the deposited data

How the results depend on the processing

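Of the 47 genes, 8 were higher, and this count was 6 to 9 under median centring, quantile normalization, the dim filter, the trended and robust prior, array weights, the mean of a gene's probe sets, the replicate block and the added block for poly-A controls below the midpoint, and 11 at a threshold of 0.1. It was 0 by the methods' t-test after adjustment, which called 1 probe set of the whole array, 1 with the block for high Xist and 1 with the block for low poly-A controls. The 12 probe sets called higher became 0, 1 and 1 under these 3 settings. These 3 settings also called fewer probe sets over the whole array than the main fit, and in each block 1 arm is a single pool. Leaving out 1 pool at a time gave 3 to 8 genes higher and 0 to 1 lower (Bmp6, without NTG pool 3). It gave 7 to 12 probe sets higher and 0 to 1 lower, with fewer samples in each fit. Over the whole array 320 to 1851 probe sets were called in these fits, against 1069 higher and 168 lower with all pools. Under the dim filter Bmper, Bmp5, Inha, Nog and Smad9 were not tested.

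The replicate numbers did not pair the pools (correlations of same-numbered deviations -0.15, -0.0006 and 0.027). With the replicate block 7 of the 8 genes passed, all but Smad2 (adjusted p = 0.0845), and the further pathway genes gave 1 higher and 0 lower.

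Of the further pathway genes, 2 were higher and 1 lower. They gave 1 higher and 2 lower by quantile normalization, 0 and 0 by the methods' t-test and by the block for low poly-A controls, and 4 and 3 at a threshold of 0.1. The lower call was 0 with median centring, the trended prior, array weights and the block for high Xist, and leaving out a pool gave 1 to 3 higher and 0 lower.

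Differences of some genes that did not pass changed sign, among them Bmp6 and Tgfbr1 (-0.81 and 0.81 with all pools), and the cause was not tested. Quantile normalization gave -0.19 for Ltbp3, -0.054 for Smad1, -0.011 for Smad7 and -0.12 for Skil, and median centring gave 0.015 for Bmp4. With the block for high Xist, Bmp4 was at 0.41, Bmp5 at 0.0073, Bmp6 at 0.15, Inha at -0.52, Grem1 at -0.26, Tgfbr3 at 0.072, Bmpr2 at 0.22 and Acvrl1 at 0.029, and with that for low poly-A controls Bmp2 was at 0.11 and Grem1 at -0.11. The mean of all probe sets gave -0.11 for Tgfbr1, -0.043 for Bmpr1a, -0.15 for Bmpr1b, -0.0039 for Smad3 and -0.18 for Smad7. Leaving out 1 pool gave ranges across 0 for Ltbp3 (-0.17 to 0.34), Bmp4 (-0.32 to 0.13), Acvr2a (-0.40 to 0.085), Smad6 (-0.021 to 0.98) and Skil (-0.078 to 0.34).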
